A study of Rattus norvegicus with 47 samples.

Results

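Purkinje cell genes were followed in messenger RNA of rat cerebellum and striatum after inhalation of PCB52, a polychlorinated biphenyl. The members were 8 listed genes, found by matching the numeric gene identifiers of both count tables to rat symbols. Of the 15319 genes in the tables, 6 were members: Pcp2 (gene 304195), Calb1 (83839), Car8 (297814), Ppp1r17 (266705), Slc1a6 (84012) and Homer3 (29548). The listed Rora and Dner were not analysed here. The PCB52 groups were Sprague-Dawley rats, males and females, given PCB52 in air by nose-only inhalation, 4 h each day, during 28 days. The sham groups were male and female rats of the same strain labelled sham, and the labels name no genetic change. All animals arrived at 28 days of age and were assigned to a group at 39 days (males) or 42 days (females). Tissue punches of cerebellum gave 5 libraries of PCB52 males, 5 of sham males, 6 of PCB52 females and 6 of sham females. Punches of striatum gave 6 of PCB52 males, 4 of sham males, 6 of PCB52 females and 6 of sham females.

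Purkinje cells are the large inhibitory neurons whose axons are the only output of the cerebellar cortex. Glutamate from parallel fibres raises IP3 in their dendrites, which releases calcium from stores through the IP3 receptor. Several members sit on or near that route. Calb1 encodes calbindin, a calcium buffer that is also made by striatal projection neurons. Car8 encodes a carbonic anhydrase-related protein that lacks enzyme activity and binds the IP3 receptor. Homer3 is a postsynaptic scaffold that binds the IP3 receptor. Slc1a6 encodes EAAT4, the glutamate transporter of Purkinje cell spines. Ppp1r17, also called G-substrate, is an inhibitor of protein phosphatases that is switched on by cyclic GMP-dependent protein kinase. Pcp2, also called L7, modulates signalling by inhibitory G proteins. Rora encodes the nuclear receptor RORalpha, which Purkinje cells need to mature, and Dner is a Notch ligand.

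The DNA just upstream of Pcp2 and Ppp1r17 is shown because they had the widest range of the 6 members between cerebellar libraries, 3.81 times for Pcp2 and 2.79 times for Ppp1r17 from lowest to highest. The sequences are the 250 bases before the annotated start, from RefSeq on build GRCr8. The Pcp2 window is chr12:6481308-6481557 on the minus strand, and the Ppp1r17 window is chr4:86543871-86544120 on the plus strand. Capitals mark AGGTCA, the core motif bound by receptors of the ROR family, which was searched on both strands.
Pcp2: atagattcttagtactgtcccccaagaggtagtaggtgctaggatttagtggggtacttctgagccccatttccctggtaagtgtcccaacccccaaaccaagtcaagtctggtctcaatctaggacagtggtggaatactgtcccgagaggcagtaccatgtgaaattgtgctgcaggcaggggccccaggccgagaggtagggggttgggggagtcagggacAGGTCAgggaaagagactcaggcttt
Ppp1r17: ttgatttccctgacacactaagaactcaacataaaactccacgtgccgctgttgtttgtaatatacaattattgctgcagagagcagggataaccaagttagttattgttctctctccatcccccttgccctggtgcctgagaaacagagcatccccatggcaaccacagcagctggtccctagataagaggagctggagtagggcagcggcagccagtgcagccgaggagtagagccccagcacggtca
The Pcp2 window held 1 copy, which began 26 bases before the start. The Ppp1r17 window held 0. A RefSeq window was at hand for 4 members, the other two being Slc1a6 and Homer3, and Pcp2 was the only 1 of the 4 with the motif. Of all 33469 promoter windows, 4707 (14.1%) held it, so a match describes letters and not a bound site.

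Total counts ran from 5684508 to 15865054 per library. Levels are given as CPM, which scales counts to a common library size, with library totals adjusted by the TMM method, and are compared for 1 gene between libraries, not between genes, because CPM does not take gene length into account. Some libraries stood apart. Transcripts of both sexes occurred together in cerebellar sham females 8 and 10 and sham males 9 and 11 and in striatal sham male 3. Choroid plexus genes were high in cerebellar sham male 1 and striatal PCB52 female 20. Forebrain genes were high in striatal PCB52 female 14 and PCB52 male 19. In a bulk punch, fewer Purkinje cells and less RNA per cell cannot be told apart.

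All 6 members were higher in cerebellum than in striatum, in exposed and in sham animals. In cerebellum Pcp2 ran from 273 to 1038 CPM over 22 libraries with a median of 434, and in striatum from 4.75 to 31.0 CPM with a median of 7.96. Car8 ran from 942 to 2602 CPM (median 1449) in cerebellum and from 13.4 to 94.5 CPM (median 18.3) in striatum. Ppp1r17 ran from 231 to 643 CPM (median 355) in cerebellum and from 0 to 14.03 CPM (median 0.467) in striatum, where it did not pass the filter on low counts. For each of these genes the lowest cerebellar library lay well above the highest striatal one. Slc1a6 stood at 160.0 to 413 CPM in cerebellum and 2.55 to 13.1 CPM in striatum. Homer3 stood at 298 to 620 CPM in cerebellum and 22.3 to 44.1 CPM in striatum. Calb1 had the smallest contrast, with 786 to 1495 CPM in cerebellum and 134 to 280 CPM in striatum. The TMM adjustment of these levels was made within each region and not across both. In CPM by plain library total, every cerebellar library lay above every striatal one for each of the 6 members. By that measure 9.74% of all 12446 genes did the same.

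**Figure D1:**
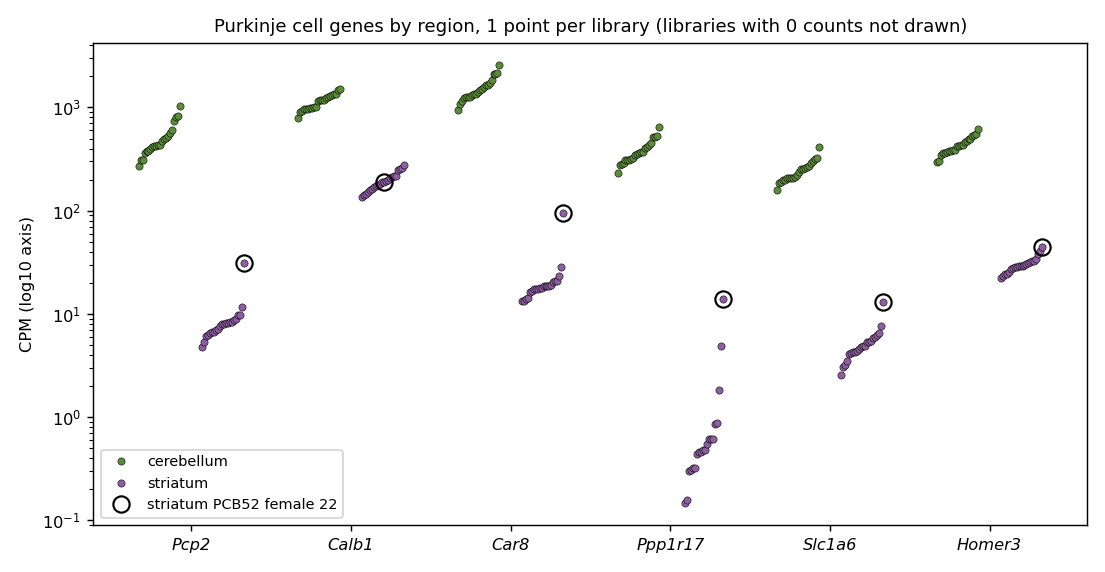
Level of each Purkinje cell gene in CPM (log10 axis) in 22 cerebellar and 22 striatal libraries, 1 point per library, with striatal PCB52 female 22 ringed and libraries at 0 counts not drawn. The 2 regions do not overlap for any gene, and the ringed library is the highest striatal one for each gene except Calb1.

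The fitted difference between regions, cerebellum over striatum, was largest for Ppp1r17 at 8.75 ± 0.43 on the log2 scale (SE) in PCB52 animals and 8.93 ± 0.50 in sham animals. Car8 differed by 6.15 ± 0.26 in PCB52 animals and 6.24 ± 0.30 in sham animals, and Pcp2 by 5.96 ± 0.26 in PCB52 animals and 5.76 ± 0.29 in sham animals. For Slc1a6 the difference was 5.58 ± 0.19 in PCB52 animals and 5.54 ± 0.22 in sham animals. Homer3 and Calb1, which other neurons also make, differed by less. Homer3 stood 3.89 ± 0.12 higher in cerebellum of PCB52 animals and 3.78 ± 0.13 higher in that of sham animals, and Calb1 2.73 ± 0.11 higher in PCB52 and 2.40 ± 0.12 higher in sham animals. All 6 passed edgeR's quasi-likelihood test in both comparisons, in which 40.4% of the 12446 genes were called higher in cerebellum of PCB52 animals and 35.5% in that of sham animals. Called in either direction were 76.9% of genes in PCB52 animals (36.5% lower) and 69.8% in sham animals (34.3% lower). The members were listed as genes of a cerebellar cell type, so their calls are no independent result. For Ppp1r17 the striatal median was 0.467 CPM, so the size of its difference depends on values near 0. In the 21 animals with both regions, the difference was above 0 for every member in every animal, with the lowest value 2.02 (Calb1). Genes listed for the same cells outside the members did not all follow. Of 23 other Purkinje genes measured, 16 were called higher and 4 lower in cerebellum of PCB52 animals, and 16 higher and 6 lower in that of sham animals. All 12 granule cell genes were called higher in cerebellum, and all 12 genes of striatal projection neurons lower, in both treatments. Of 75 ribosomal protein genes, 59 were called higher and 1 lower in cerebellum of PCB52 animals, and 6 higher and 10 lower in that of sham animals. These counts come from separate tests, and their difference is not itself a test. For the PCB52 effect in cerebellum minus that in striatum, edgeR called 0 of 12446 genes. The PCB52 side holds 4 cerebellar libraries with a ribosomal protein mean above 9 log2 CPM, described below.

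In striatum 1 library was high in cerebellar genes. PCB52 female 22 held 31.0 CPM of Pcp2, against 4.75 to 11.6 CPM in the other 21 striatal libraries. It held 94.5 CPM of Car8, against 13.4 to 28.6 CPM. It held 14.03 CPM of Ppp1r17, against 0 to 4.90 CPM. Its excess over the median of the other striatal libraries amounted to a few percent of the cerebellar median for 5 members, with 5.31% for Pcp2, 5.29% for Car8, 3.82% for Ppp1r17, 3.63% for Slc1a6 and 3.61% for Homer3. For Calb1, which striatal neurons make themselves, it was 0.0871%. These percentages are approximate, because the TMM adjustment was made within each region. The same library held 67.8 CPM of Gabra6, the GABA-A receptor subunit of granule cells, against at most 1.96 CPM in the others. Over the 8 of 12 listed granule cell genes whose cerebellar median was at least 10 times that of the other striatal libraries, the excess was 4.06% to 9.31% of the cerebellar median, with a median of 6.18%. For 3 of the 8 the library lay within the range of the others, at 60.8 CPM of Zic1 against up to 84.1 CPM, 33.6 CPM of Zic2 against up to 59.0 CPM and 11.4 CPM of Pax6 against up to 18.1 CPM. Without this library the region difference in PCB52 animals became 9.66 for Ppp1r17 and 6.54 for Car8.

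After PCB52, the fitted level of all 6 members in cerebellum lay above that of sham animals, and none passed the test. Pcp2 stood at 381, 814, 469, 524 and 1038 CPM in PCB52 males 13, 15, 19, 21 and 23, against 273, 561, 427, 604 and 366 CPM in sham males 1, 3, 7, 9 and 11. In PCB52 females it had a low of 309, a median of 419 and a high of 831 CPM, and in sham females 311, 434 and 509 CPM. The highest values belonged to 4 exposed animals, males 15 and 23 and females 16 and 20, and the remaining exposed animals lay within the range of the sham animals of both sexes. The log2 fold change was 0.53 ± 0.29 (SE) in males, 0.26 ± 0.27 in females and 0.40 ± 0.20 averaged over the sexes (edgeR adjusted p = 0.313, 1.00 and 0.326).

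The same 4 animals had the highest Car8. It stood at 1252, 2113, 1341, 1651 and 2602 CPM in the PCB52 males, against 942, 1489, 1310.3, 1835 and 1227 CPM in the sham males. In PCB52 females it ran from 1152 to 2149 CPM (median 1509), and in sham females from 1092 to 1723 CPM (median 1454). PCB52 and sham values overlapped in both sexes, and the fold changes were 0.40 ± 0.22 in males, 0.18 ± 0.20 in females and 0.29 ± 0.15 averaged over the sexes (log2, SE; edgeR adjusted p = 0.313, 1.00 and 0.326).

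Ppp1r17, the phosphatase inhibitor, had 315, 517, 351, 410.4 and 643 CPM in the PCB52 males, against 231, 366, 324, 449.6 and 307.6 CPM in the sham males. In PCB52 females the low, median and high were 284, 340.3 and 524 CPM, and in sham females 279, 352 and 431 CPM. The female medians lay close together, and PCB52 females 16 and 20 alone exceeded the sham females. The fold changes were 0.41 ± 0.22 in males, 0.11 ± 0.20 in females and 0.26 ± 0.15 over both sexes (log2, SE; edgeR adjusted p = 0.313, 1.00 and 0.331).

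The postsynaptic scaffold Homer3 averaged 485 ± 107 CPM in PCB52 males and 413 ± 95.2 CPM in sham males (SD, n = 5 each). In females it averaged 429 ± 69.7 CPM after PCB52 and 399 ± 54.6 CPM after sham exposure (SD, n = 6 each). Its fold change, 0.17 ± 0.11 as the mean of both sexes, was within the spread of the libraries (log2, SE; edgeR adjusted p = 0.396). The transporter gene Slc1a6 averaged 289 ± 84.2 CPM in PCB52 males and 236 ± 38.4 CPM in sham males (SD, n = 5 each). In females it averaged 235 ± 49.6 CPM after PCB52 and 225 ± 50.8 CPM after sham exposure (SD, n = 6 each). Its highest library was PCB52 male 21 at 413 CPM, which was not among the 4 animals with the most Pcp2, and the fold change over both sexes was 0.18 ± 0.13 (log2, SE; edgeR adjusted p = 0.426). Without that library it was 0.09 over both sexes and 0.13 in males, against 0.29 in males with it. Calb1 averaged 1213 ± 217 CPM in PCB52 males and 1054 ± 217 CPM in sham males (SD, n = 5 each). In females it averaged 1137 ± 216 CPM after PCB52 and 1132 ± 162 CPM after sham exposure (SD, n = 6 each). With 0.10 ± 0.11 it had the smallest mean fold change of the 6 (log2, SE; edgeR adjusted p = 0.548).

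**Figure D2:**
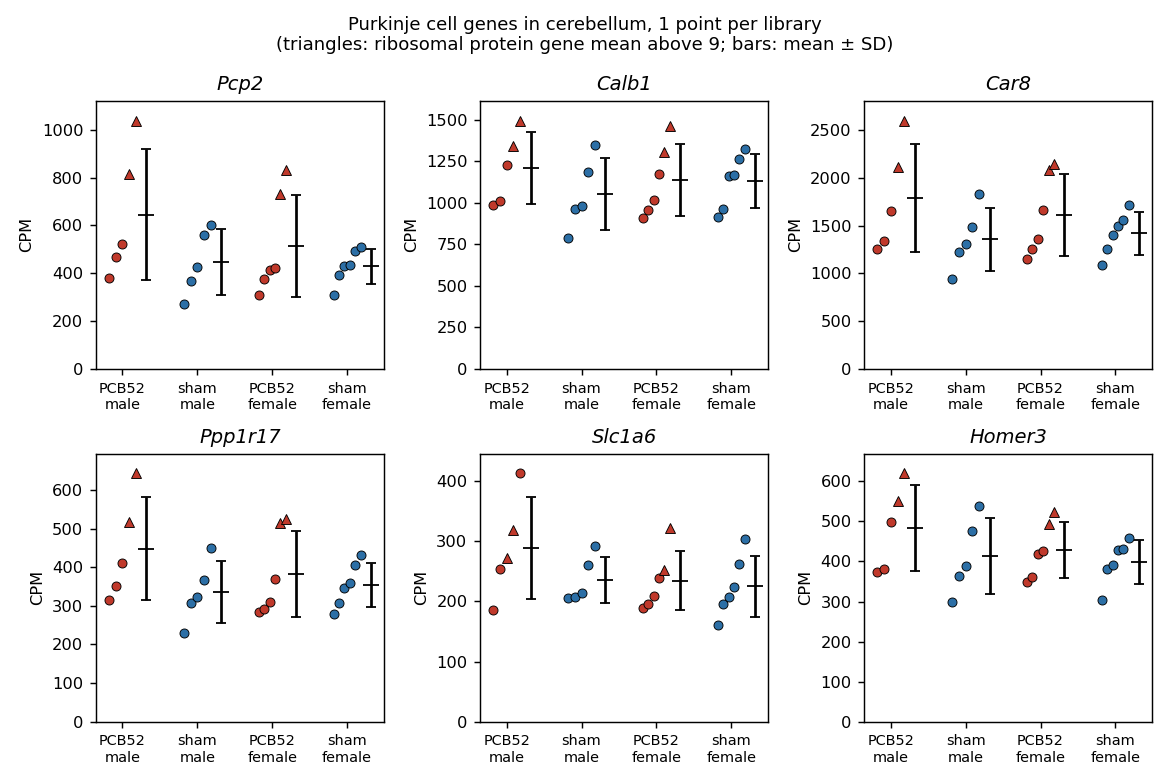
CPM of the 6 Purkinje cell genes in each cerebellar library by treatment and sex, with the mean ± SD of each group beside its points and triangles for the 4 libraries whose ribosomal protein gene mean exceeded 9. For Pcp2 the triangles lie at 731 to 1038 CPM, above all other libraries, which lie at 273 to 604 CPM.

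In these comparisons edgeR called 0 of 11690 genes, 0% in each direction, whether the sexes were taken apart or averaged. An unadjusted p under 0.05 was found for 1673 genes (14.3%) in males, 369 (3.16%) in females and 1727 (14.8%) over both sexes, and for 0 of 6 members. DESeq2 called 1 gene in males, 9 in females and 21 over both sexes, none of them a member, and limma called 0. Fold changes above 0 were found for 50.7% of all genes in males, 55% in females and 50.3% over both sexes, beside 6 of 6 members in each. The median over the members was 0.34 in males, 0.11 in females and 0.22 over both sexes (log2). Over all genes it was 0.01 in males, 0.02 in females and 0.00 over both sexes. Without the 4 sham libraries holding transcripts of both sexes the male values lay between 0.30 (Calb1) and 0.62 (Pcp2).

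The 4 libraries with the highest Pcp2 also had the highest level of ribosomal protein genes, a marker set picked after the values were seen. The mean of 75 ribosomal protein genes was 9.11 to 9.76 log2 CPM in them and 7.51 to 8.62 in the other 18 cerebellar libraries. It averaged 8.74 ± 0.72 in PCB52 males and 8.11 ± 0.45 in sham males (SD, n = 5 each). In females it averaged 8.34 ± 0.73 after PCB52 and 8.19 ± 0.30 after sham exposure (SD, n = 6 each). All 75 genes had a fold change above 0 as the mean of both sexes, beside 50.3% of all genes, with a median of 0.52 (log2). Of the 75, 0 passed the test, and 49 had an unadjusted p under 0.05 in edgeR, beside 14.8% of all genes. In males 37 of the 75 did (14.3% of all genes), and in females 0 (3.16% of all genes). Library totals were 6766637 to 8670850 in these 4 and 6524400 to 15865054 in the other 18, and the part of sequencing depth was not tested. The list mean of granule cell genes was lower in the 4, with 8.24 to 8.42 log2 CPM against 8.45 to 9.09 in the 18. The genes of that list were split. Of 12 genes, 9 had a Pearson's r below -0.5 with the mean of the members and 2 had r above 0.5. Gabra6 lay between, and its level of 917.5 to 1174.5 CPM in the 4 was within the 849.7 to 1207.8 CPM of the 18. A change in the number of granule cells was not tested.

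The members followed the ribosomal protein mean within groups also among the 18 other libraries. After removal of the group means, Pearson's r was 0.918 for Pcp2 (Spearman's rho 0.917, permutation p = 1e-05 for each, the smallest that 100000 resamples can give, and Benjamini-Hochberg adjusted p = 2e-05 and 3.5e-05 over 7 relations). Without the 2 libraries farthest from the median of the ribosomal mean, r for Pcp2 was 0.886. For Ppp1r17 r was 0.910 and rho 0.866, for Car8 0.900 and 0.897, and for Calb1 0.892 and 0.889 (adjusted permutation p at most 5.25e-05). Homer3 followed less closely with r 0.792 and rho 0.820 (adjusted permutation p = 1.63e-04 and 1.17e-04). Slc1a6 followed least, with r 0.590 and rho 0.556 (adjusted permutation p = 0.00991 and 0.0182). Without the 2 farthest libraries r was 0.896 for Ppp1r17, 0.882 for Car8, 0.857 for Calb1, 0.713 for Homer3 and 0.532 for Slc1a6. Both measures come from the same libraries and share their depth and composition. The ribosomal protein set was picked after the values of these libraries were seen, so the p-values are no independent support. The permutations shuffled the values over all 18 libraries and not within groups. How many of all genes follow the ribosomal protein mean as closely was not examined.

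**Figure D3:**
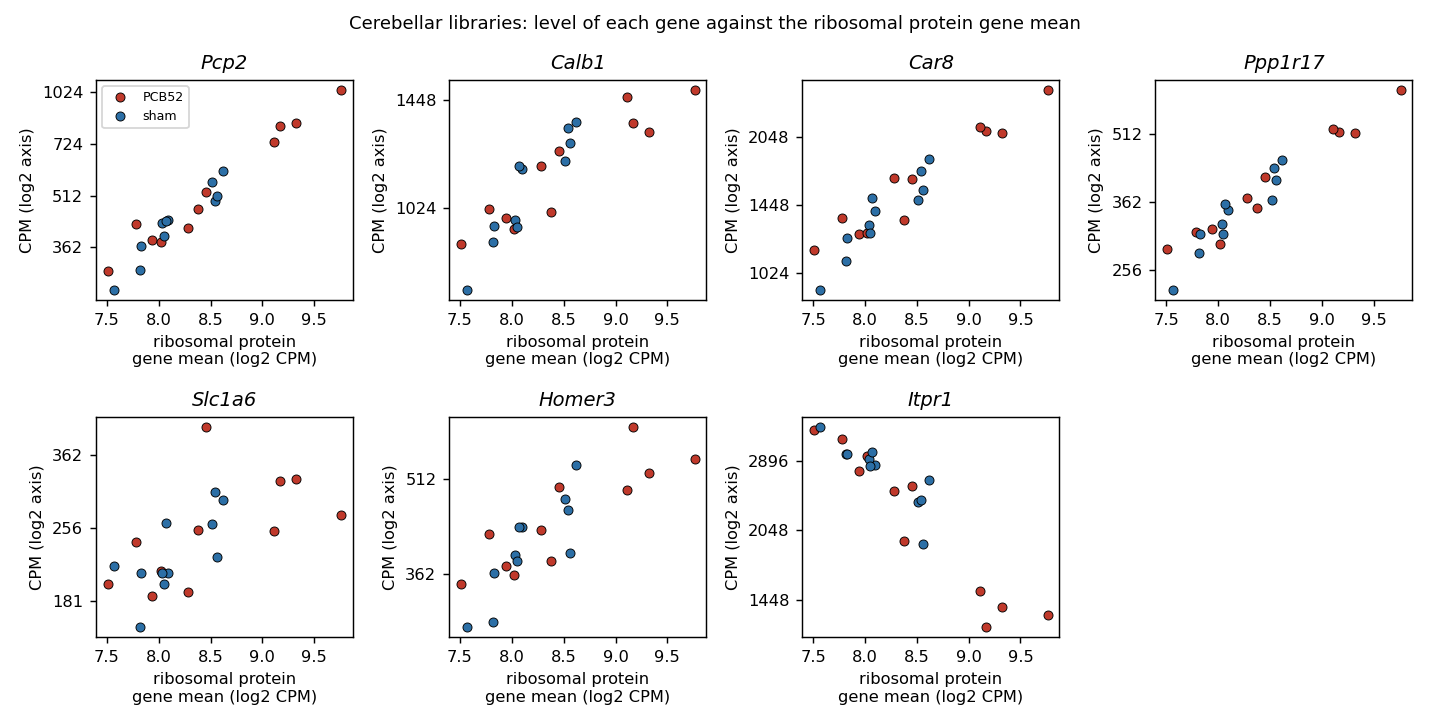
CPM (log2 axis) of the 6 Purkinje cell genes and of Itpr1 against the mean log2 CPM of 75 ribosomal protein genes in 22 cerebellar libraries, with PCB52 and sham libraries in different colours. The members rise with the ribosomal mean, Slc1a6 most loosely, and both treatments overlap below 9, while Itpr1 falls with it, at 1261 to 1512 CPM in the 4 libraries at the right and 1913 to 3431 CPM in the rest.

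With the 4 libraries left out, which leaves 3 PCB52 males and 4 PCB52 females, the fold changes of the members were close to 0. As the mean of both sexes Pcp2 stood at -0.07 ± 0.14, Car8 at -0.01 ± 0.12, Ppp1r17 at -0.04 ± 0.12, Homer3 at -0.02 ± 0.11 and Calb1 at -0.07 ± 0.11 (log2, SE). Slc1a6 stood at 0.07 ± 0.15. With the ribosomal protein mean as a covariate in all 22 libraries, the values lay between -0.05 ± 0.05 (Calb1) and 0.06 ± 0.12 (Slc1a6), with Pcp2 at 0.02 ± 0.05. These fits were chosen after seeing the data. The 4 libraries left out were all PCB52 libraries and held the highest Pcp2 and Car8, so leaving them out lowers these fold changes by construction. The covariate itself rose with the members within groups. The fits therefore cannot show whether a difference remains apart from the ribosomal protein mean, and the part of that mean was not otherwise tested. At the other end of the range, sham male 1 had the lowest Pcp2, Calb1, Car8, Ppp1r17 and Homer3 of the 22 cerebellar libraries. Its choroid plexus list mean was 5.68 log2 CPM, against 0.18 to 1.88 in the other cerebellar libraries. Without sham male 1 the fold change in males was 0.40 for Pcp2, 0.31 for Ppp1r17, 0.29 for Car8, 0.13 for Homer3 and 0.11 for Calb1 (log2). Without PCB52 male 23 it was 0.29 for Pcp2, 0.25 for Ppp1r17, 0.22 for Car8 and 0.12 for Calb1. Without PCB52 male 15 it was 0.13 for Homer3, and without sham male 9 it was 0.31 for Calb1. The female fold changes also moved with single libraries. Without PCB52 female 20 they were 0.07 for Pcp2, 0.09 for Car8, 0.0061 for Ppp1r17 and 0.04 for Homer3. Without PCB52 female 16 they were 0.13 for Pcp2, 0.08 for Car8, -0.0011 for Ppp1r17 and 0.06 for Homer3, and without sham female 4 they were 0.11 for Car8, 0.05 for Ppp1r17 and 0.04 for Homer3. Without PCB52 female 14 they were higher, with 0.18 for Ppp1r17 and 0.15 for Homer3.

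**Figure D4:**
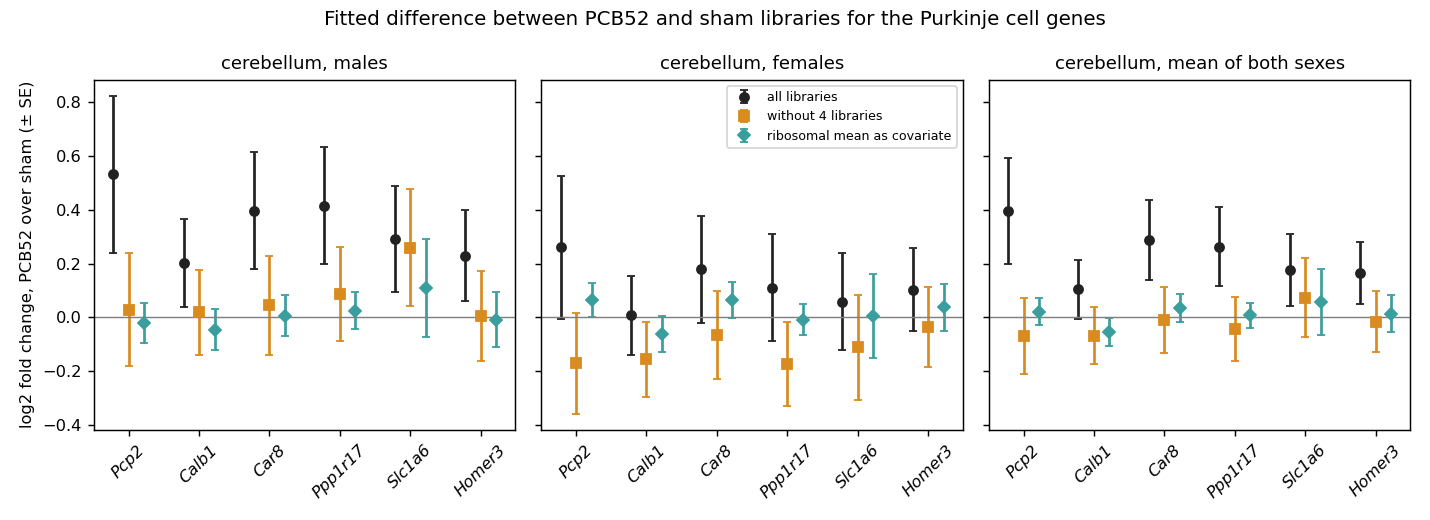
Log2 fold change of PCB52 over sham with its SE for the 6 Purkinje cell genes in cerebellum of males, of females and over both sexes, with all libraries, without the 4 libraries of high ribosomal protein mean, and with that mean as a covariate. With all libraries every point is above 0, up to 0.53 for Pcp2 in males, and in the other fits the mean of both sexes lies between -0.07 and 0.07. The 4 libraries left out were PCB52 libraries with the highest Pcp2 and Car8, so that fit lowers these fold changes by construction.

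Across the 22 cerebellar libraries, after removal of group means, the members moved together. Pearson's r of each gene with the mean of the other five was 0.967 for Car8, 0.961 for Ppp1r17, 0.957 for Calb1, 0.940 for Pcp2 and 0.939 for Homer3. It was 0.678 for Slc1a6. Pcp2 varied most, with a residual SD of 0.48 log2 units, above 84.2% of the 9979 genes compared, and Calb1 least, with 0.26. Outside the members, the genes most like their mean were Nsg1 (r = 0.986), a neuronal protein of endosomal traffic, Tuba8 (0.979), an alpha tubulin, Lrp11 (0.977), Erg28 (0.973), Syndig1 (0.972), a synapse differentiation gene, and Arf1 (0.969), a small GTPase of vesicle coats. Among the 18 libraries r for Nsg1 was 0.985. Such values were common in these libraries, since 38.9% of the 9979 genes had r above 0.5 and 38.3% below -0.5.

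Other Purkinje genes were found on both sides. Of 23 with a value, 7 had r above 0.5 and 10 below -0.5, beside 38.9% and 38.3% of all genes, so the list did not stand apart by these counts. Pvalb (0.955), the calcium buffer parvalbumin, Pcp4 (0.950), a calmodulin regulator, and Itpka (0.949), an IP3 kinase, moved with the members. Pcp4 ran from 878 to 1389 CPM in the 4 libraries and from 315 to 740 CPM in the 18. Other genes moved against them. Cacna1a, the P/Q-type calcium channel, had r of -0.923. Itpr1, the IP3 receptor, had -0.791. Of 20 genes listed for IP3 receptor signalling, 3 had r above 0.5, among them Inpp5a (0.948), an IP3 phosphatase and Cbln1 (0.632), a granule cell synaptic organizer, and 14 had r below -0.5. Genes of other cells lay on that side too. Of 12 granule cell genes 9 were below -0.5 and 2 above 0.5, and of 8 cerebellar interneuron genes 5 were below and 0 above. Which library had poly(A) selection or ribosomal RNA depletion is not stated, and its part in these correlations was not tested.

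In the comparison of PCB52 with sham these lists share several genes and held fold changes of both signs. Of the 20 IP3 receptor signalling genes, 0 passed the test in cerebellum. As the mean of both sexes 5 had a fold change above 0 and 15 below, with a median of -0.25 (log2) beside 0.00 over all genes. The lowest p belonged to Cbln1, with 0.14 ± 0.06, and Itpr1, with -0.32 ± 0.17 (log2, SE; edgeR adjusted p = 0.326 for each). In females alone 13 were above 0 and 7 below, with a median of 0.03 (log2). Of the 23 other Purkinje genes 10 were above 0 and 13 below as the mean, with a median of -0.07. Pcp4 had 0.53 ± 0.23 and Gad1, the GABA-synthesizing enzyme, -0.28 ± 0.13 (log2, SE; edgeR adjusted p = 0.326 for each). Of 8 genes that depend on RORalpha in mouse, Pcp2, Slc1a6 and Calb1 among them, 4 were above 0 and 4 below, with a median of -0.04. In mouse, Purkinje cells form stripes marked by zebrin. Of 6 genes of zebrin-positive cells 4 were above 0, with a median of 0.09, and of 5 genes of zebrin-negative cells 2 were above 0, with a median of -0.23. Of 12 granule cell genes 2 were above 0 and 10 below, with a median of -0.14. None of these genes passed the test.

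In striatum Calb1 was the member with the lowest p. It had a low of 134, a median of 155 and a high of 197 CPM in PCB52 females, against 171, 251 and 280 CPM in sham females. The groups overlapped, because sham females 4 and 10, at 171 and 173 CPM, lay below PCB52 females 16 and 22. In males Calb1 stood at 164 to 217 CPM after PCB52 (median 198) and at 143 to 218 CPM after sham exposure (median 187). The log2 fold change was -0.51 ± 0.13 in females (SE, unadjusted p = 8.47e-04 in edgeR) and 0.08 ± 0.15 in males. It did not pass after adjustment over 12142 genes (edgeR adjusted p = 0.222 in females and 1.00 in males), where edgeR called 0 genes, 0% of those tested, and 1633 genes (13.4%) had an unadjusted p under 0.05 in females. With DESeq2, which called 23 genes in females, its adjusted p was 0.0586. Over all alternatives in females the adjusted p ran from 0.0586 to 0.719, the highest without PCB52 females 14 and 20 and PCB52 male 19, striatal libraries high in choroid plexus or forebrain neuron genes, where the fold change was -0.41 ± 0.15 (log2, SE). PCB52 female 22 was kept in that fit, and without it alone the fold change was -0.56 ± 0.14 (log2, SE; edgeR adjusted p = 0.237).

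**Figure D5:**
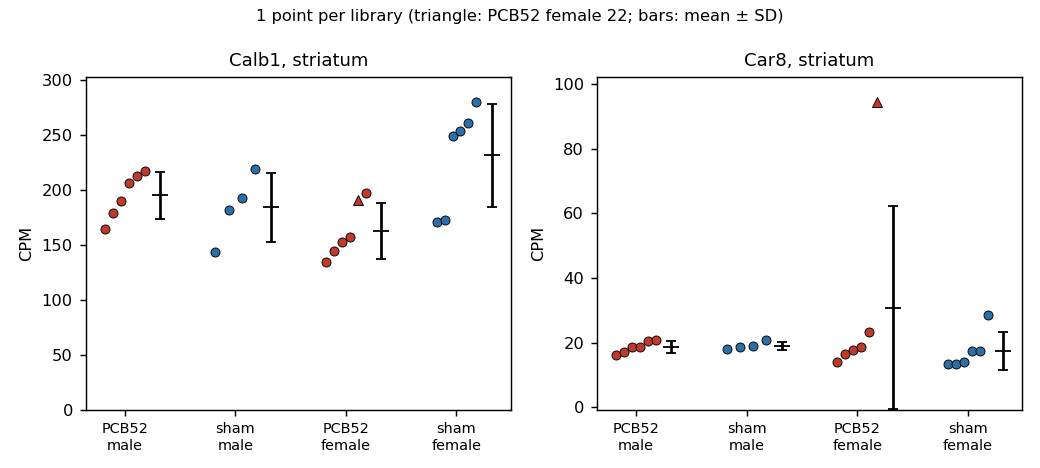
CPM of Calb1 and Car8 in each striatal library by treatment and sex, with the mean ± SD of each group beside its points and a triangle for PCB52 female 22. Calb1 lies at 134 to 197 CPM in PCB52 females and 171 to 280 CPM in sham females, and the triangle for Car8 lies at 94.5 CPM, above all other libraries at 13.4 to 28.6 CPM.

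Genes of striatal projection neurons lay on the same side as Calb1 in females. Of 12 such genes 1 had a fold change above 0 and 11 below, and 0 passed the test. Their median was -0.23 (log2), beside -0.002 over all 12142 genes tested. Their list mean was 8.28 to 9.23 log2 CPM in PCB52 females and 8.79 to 9.37 in sham females. It was lowest in PCB52 females 24 (8.28) and 14 (8.44), and its part in the Calb1 difference was not tested. Ribosomal protein genes lay on that side too, with 0 of 75 passing the test, 75 of 75 below 0 and a median of -0.32 (log2). How many of all genes lay below 0 in striatum of females was not examined. The mean of the ribosomal protein genes was 7.94 ± 0.33 log2 CPM in PCB52 females, against 8.25 ± 0.36 log2 CPM in sham females (SD, n = 6 each). With that mean as a covariate, a fit chosen after seeing the data, the fold change of Calb1 was -0.46 ± 0.14 (edgeR adjusted p = 0.254). The remaining members in striatum turned on PCB52 female 22. With it, Car8 in females had a fold change of 0.83 ± 0.35 (log2, SE, unadjusted p = 0.0266, edgeR adjusted p = 0.346), and without it 0.05 ± 0.17. Pcp2 had 0.55 ± 0.33 with it and -0.12 ± 0.19 without it, and Slc1a6 had 0.39 ± 0.29 with it and -0.02 ± 0.24 without it. Homer3 had 0.23 ± 0.14 with it and 0.12 ± 0.14 without it. In males the 5 members tested lay between -0.11 (Pcp2) and 0.08 (Calb1).

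The effect of PCB52 was not shown to differ between the sexes or the regions for any member. In cerebellum the female effect minus the male effect lay between -0.30 ± 0.29 (Ppp1r17) and -0.13 ± 0.23 (Homer3), and edgeR called 0 of 11690 genes, with 254 at an unadjusted p under 0.05. In striatum it was -0.59 ± 0.20 for Calb1 (log2, SE, unadjusted p = 0.00689, edgeR adjusted p = 0.914), with 0 of 12142 genes called and 471 at an unadjusted p under 0.05. The cerebellar minus the striatal effect, as the mean of both sexes, was 0.33 ± 0.16 for Calb1 (log2, SE, unadjusted p = 0.0377, edgeR adjusted p = 0.268). For the other members it lay between -0.18 ± 0.86 (Ppp1r17) and 0.20 ± 0.33 (Pcp2). edgeR called 0 of 12446 genes there and 2278 (18.3%) had an unadjusted p under 0.05. Females and males did not differ at the threshold for any of the 6 members in cerebellum, in PCB52 or in sham animals, with 0 of 11690 genes called in each. An unadjusted p under 0.05 was found for 379 genes in PCB52 animals and 123 in sham animals.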

How the data were processed

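RNA of tissue punches was sequenced from cerebellum and striatum. Per the labels' protocols, messenger RNA was enriched by poly(A) selection or ribosomal RNA depletion, with no statement of which library had which. FastQC, HISAT2 and build rn6 are named in the submitters' processing notes. For the read counter and strand setting, the labels and notes give nothing, so overlapping and antisense genes could not be told apart. The authors deposited 1 table of whole-number counts per gene for each region, not normalized. Of 15319 identifiers 15230 (99.4%) matched a symbol in a reference table of GRCr8, used for names and promoter sequences only. Of 47 samples 44 had a column. Cerebellar sham male 5 and striatal sham males 5 and 7 were not analysed here. Groups came from the labels.

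Counts were tested with edgeR 4.0.16 (R 4.3.3), by the quasi-likelihood F-test with TMM, filterByExpr and robust dispersion, with 4 group means per region or 8 over both. P-values were two-sided and adjusted by Benjamini-Hochberg over all genes tested, with a threshold of 0.05. Levels on the log2 scale used a prior count of 2. Precision is limited by 4 to 6 animals a group, and every pair of libraries of a group differed beyond sampling noise, with chi-square over its degrees of freedom at least 3.49. Likeness used genes with a mean of at least 5 CPM in cerebellum. Named genes of a list are the 2 of lowest p, while those given with correlations were chosen after their values were seen. The members and lists were chosen with earlier results of these data known. Alternatives were DESeq2 1.42.0, limma 3.58.1 voom with quality weights, RLE size factors, no filter, only the groups compared, leaving out libraries with transcripts of both sexes (Xist and a Y-linked gene above 3 CPM) or high in choroid plexus, forebrain neuron or, in cerebellum, striatal neuron genes (list mean over 2 log2 units above the region's median), a granule cell covariate, each library left out in turn, and, after seeing the data, the 2 fits on the ribosomal protein mean. The main tests between regions did not pair the animals. Regions were paired only for the differences within animals and the fits with the animal as a block, because the labels give both samples of an animal its number. Same-animal deviations correlated with r from -0.378 to 0.494 in 21 animals (median 0.0912), 10 of them over 0.1. In 5 of the 21 the cerebellar library correlated best with the striatal library of its own animal.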

Additional observations from a re-analysis of the deposited data

Results flagged for a closer look

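Each member's 8 groups were examined for a library far from the rest of its group, in 48 groups of 4 to 6 libraries, and 6 values stood out by Dixon's criterion at the 95% level. Chance gives about 1 in 20 groups. In striatal PCB52 females, female 22 stood apart with 31.0 CPM of Pcp2, 94.5 CPM of Car8, 14.03 CPM of Ppp1r17 and 13.1 CPM of Slc1a6, and the same library held granule cell transcripts such as 67.8 CPM of Gabra6. In striatal sham females, female 10 stood apart with 28.6 CPM of Car8, where the other five held 13.4 to 17.6 CPM. Sham female 12 stood apart with 4.90 CPM of Ppp1r17, where the others held at most 0.879 CPM. That library also had the highest ribosomal protein mean of striatum, 8.95 log2 CPM.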

How the results depend on the processing

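No call on a member changed under any alternative run. With DESeq2 the counts of called genes for PCB52 against sham in cerebellum were 1 in males, 9 in females and 21 over both sexes. DESeq2 also called 4 genes for the female minus the male effect, 9 for females against males of the PCB52 group, 23 in females and 1 in males of striatum, and 3 for the region difference of the effect. For females against males in cerebellum the other counts, against 0, were 2 with limma, 5 (PCB52) and 4 (sham) without libraries holding transcripts of both sexes, 1 without those high in choroid plexus or forebrain neuron genes, 4 with only the groups compared, and 1 each with the granule cell and the ribosomal covariate. Leaving out 1 library each gave 0 to 3 (PCB52) and 0 to 2 (sham). With the animal as a fixed block in edgeR, in the 21 animals with both regions, 9551 genes were called in PCB52 and 8542 in sham animals for cerebellum against striatum. Without the block the counts were 9575 and 8690. A limma fit with the animal as a block gave a region difference of the Car8 effect of 0.049, against -0.089 in edgeR without it. That fit changed the method as well as the block, so the turn cannot be laid to either. Neither block fit changed a call on a member.

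Directions of uncalled fold changes turned as follows (log2). In cerebellum of females, limma gave -0.022 for Ppp1r17, -0.0042 for Pcp2, -0.049 for Calb1 and -0.048 for Slc1a6. Removing libraries with transcripts of both sexes gave -0.036 for Calb1. The granule cell covariate gave -0.020 for Ppp1r17 and -0.069 for Calb1 in females, -0.0059 for Calb1 in males and -0.037 for Calb1 over both sexes. Without the 4 libraries of high ribosomal mean the female values were -0.17 for Ppp1r17, -0.037 for Homer3, -0.067 for Car8, -0.17 for Pcp2, -0.16 for Calb1 and -0.11 for Slc1a6. Over both sexes they were -0.043 for Ppp1r17, -0.016 for Homer3, -0.011 for Car8, -0.071 for Pcp2 and -0.069 for Calb1. The region difference of the effect then was -0.079 for Homer3, -0.29 for Pcp2 and -0.067 for Slc1a6. The ribosomal covariate gave -0.0095 for Homer3, -0.022 for Pcp2 and -0.046 for Calb1 in males, -0.0090 for Ppp1r17 and -0.062 for Calb1 in females and -0.054 for Calb1 over both sexes. For the female minus the male effect it gave 0.046 for Homer3, 0.058 for Car8 and 0.087 for Pcp2. Removing the libraries high in choroid plexus or forebrain neuron genes gave a region difference of -0.013 for Homer3, -0.017 for Pcp2 and -0.055 for Slc1a6. The cause of these turns was not tested.

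Leaving out 1 library gave ranges through 0. In cerebellum of females these were -0.078 to 0.062 for Calb1, -0.0011 to 0.18 for Ppp1r17 and -0.054 to 0.16 for Slc1a6. In striatum of males they were -0.017 to 0.18 for Calb1, -0.061 to 0.016 for Car8, -0.21 to 0.065 for Pcp2 and -0.25 to 0.12 for Slc1a6. In striatum of females they were -0.12 to 0.70 for Pcp2 and -0.015 to 0.55 for Slc1a6, and over both sexes -0.11 to 0.31 for Pcp2 and -0.058 to 0.25 for Slc1a6. For the female minus the male effect of Pcp2 in striatum the range was -0.0048 to 0.82. The region difference of the effect ranged over -0.19 to 0.30 for Car8, -0.87 to 0.73 for Ppp1r17 and -0.061 to 0.25 for Slc1a6.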

Other observations

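Microglial and Bergmann glial genes also had values on the axis shared by the members in cerebellum. The named genes were chosen after their values were seen. Of 6 microglial genes with a value 3 had r above 0.5, namely Aif1 (0.901) and the complement subunits C1qb (0.825) and C1qa (0.802), and 0 below -0.5. Cx3cr1 (0.337), Tmem119 (0.160) and Csf1r (-0.476) lay between. Of 9 genes of Bergmann glia and astrocytes 3 had r above 0.5, led by Timp4 (0.921) and Hopx (0.909), and 5 below -0.5, led by Slc1a2 (-0.946), a glutamate transporter gene. Of all 9979 genes, 38.9% were above 0.5 and 38.3% below -0.5. With so few genes, neither list was shown to differ from these shares. The genes most opposite to the members were Ncan (-0.973), Sec63 (-0.970), Luc7l2 (-0.968), Wnk1 (-0.966), Usp45 (-0.963) and Itgb8 (-0.963).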
